A study of Mus musculus with 32 samples.

Results

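The polyamine genes are 10 genes for the enzymes that make, convert and break down putrescine, spermidine and spermine and for the proteins that set the activity of the first enzyme. They were followed through the loss of innervation in mouse gastrocnemius (GAS) muscle. They were taken by their symbols in the GENCODE annotation (release M21, build GRCm38) from a deposited table of 33397 genes: Odc1, Amd1, Srm and Sms for synthesis, Smox, Sat1 and Paox for catabolism, and Oaz1, Oaz2 and Azin1 for regulation. All 10 were in the table and above the minimum level of 0.1 FPKM (fragments per kilobase of exon, scaled to the sequenced total) in at least 4 samples. Amd1 was chosen by its large fall in FPKM after denervation in these same samples, so its values are given below as a description with no test. The other 9 were tested.

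The mice were C57BL/6 by the labels and, by the study's methods, C57BL/6J males of young adult age, and the treatment of every group was transection of the sciatic nerve, which supplies the calf. GAS muscle was taken on 8 occasions, 4 muscles each, at 0, 1, 3, 5, 7, 14, 21 and 28 d. The 0 d group carries the same treatment label as the others, while the methods of the study speak of a sham operation, so the 0 d samples may be muscle from sham-operated animals. Transection removes motor and sensory axons alike, and each sample was whole muscle, so fibres, resident cells and infiltrating cells were measured together. Sample numbers below are the order of the columns within a time point and pair nothing between time points.

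Polyamines are small positively charged molecules that bind RNA and DNA and are needed for protein synthesis and growth. Ornithine decarboxylase (Odc1) makes putrescine from ornithine. S-adenosylmethionine decarboxylase (Amd1) makes the aminopropyl donor that spermidine synthase (Srm) and spermine synthase (Sms) add to putrescine and to spermidine. Spermine oxidase (Smox) turns spermine back to spermidine and releases hydrogen peroxide. Spermidine/spermine N1-acetyltransferase (Sat1) acetylates both for export or for oxidation by N1-acetylpolyamine oxidase (Paox). The antizymes (Oaz1, Oaz2) bind ornithine decarboxylase, block it and carry it to the proteasome, and antizyme inhibitor (Azin1) takes up antizyme and so spares the enzyme. In skeletal muscle, genes of this pathway are known to respond to androgens, and polyamine levels are linked to muscle growth.

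Recovered depth was 14199959 to 17561848 fragments per sample. Skeletal muscle markers were high throughout (Acta1 at 7821 to 14741 FPKM), whereas the 5 retinal markers in the table had at most 14 fragments in any sample, although the submitters' extraction text names another tissue. The summed level of 6 muscle fibre markers went from 38277 to 40721 FPKM at 0 d to 20543 to 23756 FPKM at 28 d, and that of 7 macrophage markers from 140 to 207 FPKM at 0 d to 289 to 987 FPKM at 3 d. The share of mitochondrial transcripts had a median of 17.8% at 0 d and 7.42% at 14 d. The median of all expressed genes stood 0.12 (1 d) to 0.32 (14 d) log2 units above 0 d in the values as deposited and within 0.03 of it after median-ratio scaling, in which each sample is divided by its median ratio to a common reference. Each direction below was therefore read under both scalings. Sample 1 of 3 d stood apart from the other 3 on the first principal component, at -19.4 against 0.75 to 6.25, and its macrophage sum was the lowest of its group.

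The gene with the largest change, Amd1, has near copies in the genome, which bears on how its level can be read. Amd1 lies on the minus strand of chromosome 10 at positions 40287458 to 40302186 (GRCm38), and the intronless gene Amd2 lies on the same chromosome at 35708675 to 35711892. Their annotated coding sequences have 1005 bases each and differ at 1 of them, G796C, written as the base of Amd1, the position from the first coding base and the base of Amd2. The 60 coding bases around that position are shown with the differing base in capitals.

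Amd1, chr10:40290157-40290216 (minus strand): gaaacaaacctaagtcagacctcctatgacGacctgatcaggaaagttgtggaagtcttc
Amd2, chr10:35710735-35710794 (minus strand): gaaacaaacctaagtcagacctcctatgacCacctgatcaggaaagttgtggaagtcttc

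Of the stretches of 150 bases in Amd1 transcripts, the length of a read, 57.6% were also found in Amd2 or in the processed pseudogenes Amd-ps3 and Amd-ps4. A single read from those stretches could not be assigned to 1 gene by sequence. The reads were paired, so a mate outside them could still place a fragment, and the share left unplaced was not measured. The values of Amd2 and of both pseudogenes may therefore not be independent of Amd1. Of the other members, Paox shared 20.4% of such stretches with another gene, Sms 15.5%, Oaz1 11.2% and Odc1 1.68%, and Srm, Smox, Sat1, Oaz2 and Azin1 shared none.

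The sequences just upstream of Amd1 and Odc1 are shown because these were the members with the largest difference downwards and upwards. They are RefSeq promoter windows of GRCm38.p6, trimmed to the part before the annotated exon, with the GC box core CCGCCC on either strand in capitals.

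Amd1, chr10:40302189-40302438 (minus strand): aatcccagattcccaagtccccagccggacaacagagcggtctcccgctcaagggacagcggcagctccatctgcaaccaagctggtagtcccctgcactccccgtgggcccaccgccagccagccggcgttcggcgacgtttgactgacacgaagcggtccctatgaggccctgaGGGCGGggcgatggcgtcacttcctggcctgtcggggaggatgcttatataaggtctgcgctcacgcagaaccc
Odc1, chr12:17544623-17544793 (plus strand): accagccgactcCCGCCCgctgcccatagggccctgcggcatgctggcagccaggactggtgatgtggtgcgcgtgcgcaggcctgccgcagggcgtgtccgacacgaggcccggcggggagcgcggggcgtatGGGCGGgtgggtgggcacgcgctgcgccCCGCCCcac

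Windows were found for 8 of the 10 members, 10 windows in all, and the search covered the 250 bases before each start. CCGCCC was present in 8 of the 10 windows and in 32.7% of 32851 mouse promoters. The windows of Paox overlap and hold the same site, and that of Smox begins within an annotated exon, so the 10 windows are not separate upstream regions. The E-box CACGTG, the motif bound by Myc and Max, was present in 1 window, of Sms, and in 6.02% of promoters. Neither CAGCTG, the E-box form bound by myogenic factors and present in 13.0% of promoters, nor TATAAA, present in 12.4%, was found in these windows. Both strands were searched, and a match or its absence describes these letters only.

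**Figure D1:**
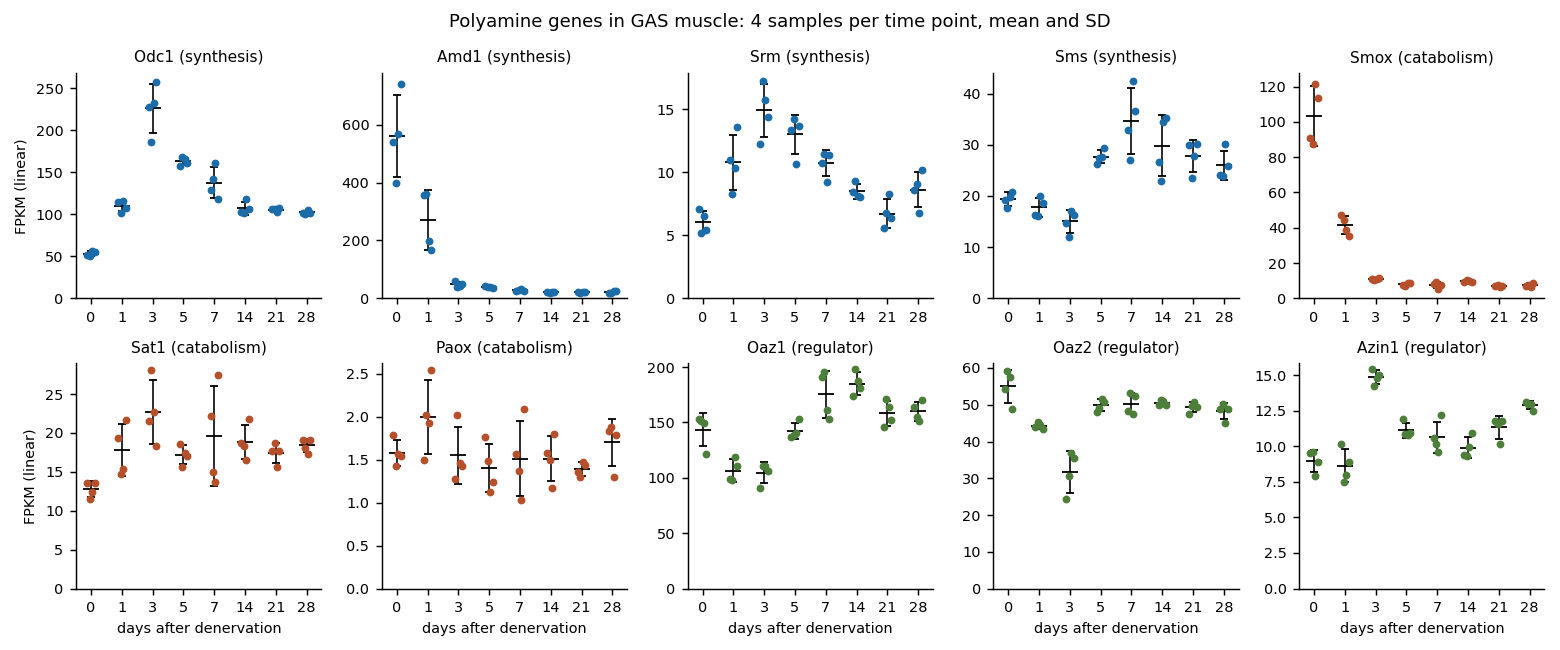
FPKM (linear axis from 0) of the 10 polyamine genes against days after denervation (time points evenly spaced). Points are single samples, 4 per time point, and bars the mean and SD. Amd1 and Smox drop within 3 d and stay low, Odc1 and Srm peak at 3 d, and Sms is highest at 7 d.

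Within synthesis, the genes for the enzymes of the first step and of the aminopropyl donor went opposite ways. Odc1 was at 51.5, 50.4, 56.4 and 55.1 FPKM in the 0 d samples. At 1 d it was at 115, 102, 116 and 108 FPKM, and at 3 d at 227, 186, 233 and 258 FPKM. Every denervated sample was above every 0 d sample. The 3 d level was 4.24-fold that of 0 d (log2 fold change 2.05 with a standard error of 0.08, limma adjusted p = 3.19e-18). From 3 d the level declined to 102, 101, 105 and 102 FPKM at 28 d, which was 2.21-fold below 3 d (log2 fold change -1.13, limma adjusted p = 4.08e-12) and still 1.92-fold above 0 d (0.93, limma adjusted p = 8.33e-11). With median-ratio scaling the difference at 28 d was 0.55, under the 1.5-fold limit, and those at the 6 earlier times stayed above it, from 0.60 at 14 d to 1.82 at 3 d.

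Amd1 was the member with the highest level before denervation, at 539, 397, 569 and 741 FPKM, which put its mean at rank 53 among all 33397 genes. At 1 d the samples were split, with 356 and 362 FPKM in samples 1 and 2 and 199 and 166 FPKM in samples 3 and 4. At 3 d they were at 59.8, 40.1, 43.2 and 49.2 FPKM, and at 28 d at 19.3, 19.7, 25.2 and 25.3 FPKM. No denervated sample reached the lowest 0 d sample. The mean of 562 ± 141 FPKM (SD, n = 4) at 0 d was 2.07-fold that of 1 d, 11.7-fold that of 3 d and 27.5-fold that of 21 d, where the lowest mean of 20.5 ± 1.31 FPKM (SD, n = 4) was found. The level rested on 20986 to 41691 fragments per sample at 0 d and on 1075 to 1315 at 21 d.

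The near copies followed Amd1 in proportion. Amd2 had a mean of 15.0 FPKM at 0 d and 0.54 FPKM at 28 d, and its mean was between 2.42% and 3.29% of that of Amd1 at each of the 8 time points. Amd-ps3 went from a mean of 29.0 to 1.28 FPKM and Amd-ps4 from 31.5 to 1.37 FPKM over the same interval. Whether fragments of Amd1 make up these values was not tested. Over the 32 samples, and among 11942 genes with a mean of at least 1 FPKM, the 5 genes whose log2(FPKM + 1) was most like that of Amd1 were Amd2 (Pearson r = 0.990), Amd-ps3 (0.989), Amd-ps4 (0.986), Uckl1os (0.973) and Ano5 (0.971). Smox came at rank 9 (r = 0.964). These samples share their 8 time points, so the coefficients describe a common time course.

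**Figure D2:**
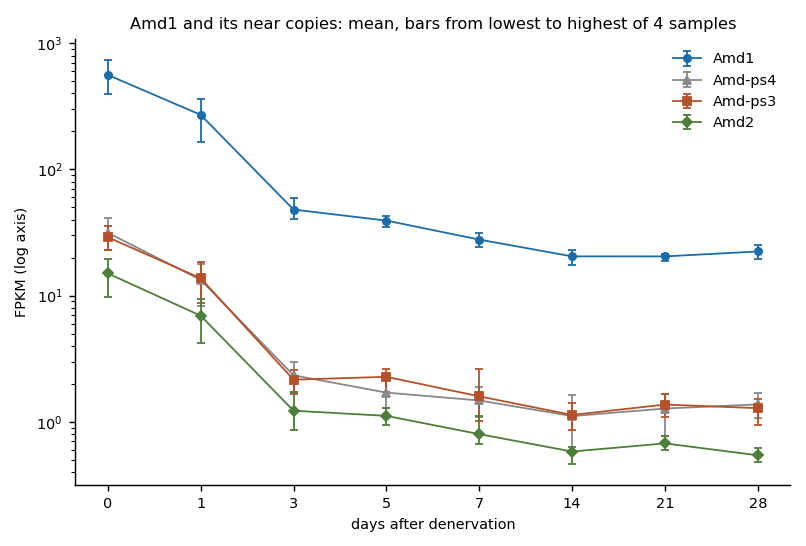
FPKM (log axis) of Amd1, its intronless copy Amd2 and the pseudogenes Amd-ps3 and Amd-ps4 against days after denervation. Symbols are means of 4 samples and bars run from the lowest to the highest sample. The 4 lines run in parallel, with Amd2 at 2.42% to 3.29% of Amd1.

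Because Odc1 and Amd1 moved apart, their order within each sample turned over. Amd1 was 7.88-fold to 13.5-fold above Odc1 in the 0 d samples and 1.54-fold to 3.54-fold above it at 1 d. At 3 d Odc1 was 3.80-fold to 5.39-fold above Amd1 in each of the 4 samples, and at 28 d 4.03-fold to 5.27-fold. FPKM is scaled to gene length, so these are ratios of levels. They are the same under either scaling, since both genes of a ratio come from 1 sample.

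The synthases that use the aminopropyl group took different courses. Srm, which makes spermidine, was at 7.10, 5.20, 6.51 and 5.44 FPKM at 0 d and at 12.3, 17.3, 15.8 and 14.4 FPKM at 3 d, with no overlap. This was a rise of 2.46-fold (log2 fold change 1.17 with a standard error of 0.13, limma adjusted p = 1.16e-08). Srm was also called higher at 1, 5 and 7 d as deposited (0.73, 0.99 and 0.73) and only at 3 and 5 d with median-ratio scaling (0.97 and 0.65). At 28 d it was at 6.77 to 10.2 FPKM, below the level at 3 d (log2 fold change -0.73, limma adjusted p = 4.55e-05) and not called against 0 d.

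Sms, which makes spermine, was lowest when Srm was highest. Its samples were at 19.3, 17.6, 19.8 and 20.8 FPKM at 0 d, at 14.7, 11.9, 17.1 and 16.4 FPKM at 3 d and at 32.8, 27.1, 42.5 and 36.6 FPKM at 7 d. The difference at 3 d did not pass (log2 fold change -0.36, limma adjusted p = 0.0245, under 1.5-fold). Between 3 and 5 d Sms rose by 0.85 (limma adjusted p = 1.02e-05), or 0.70 with median-ratio scaling, and at 7 d it stood 1.79-fold above 0 d (0.79, limma adjusted p = 6.98e-06), a call lost with median-ratio scaling (0.43). In single samples Sms was 2.72-fold to 3.82-fold above Srm at 0 d and between 0.689-fold and 1.20-fold of it at 3 d. By 7 d the ratio overlapped that of 0 d again, at 2.36-fold to 4.60-fold.

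Among the catabolic genes, Smox had the course nearest to that of Amd1. Spermine oxidase acts on spermine without prior acetylation. Its samples were at 90.7, 87.4, 122 and 114 FPKM at 0 d, at 47.2, 44.6, 38.9 and 35.4 FPKM at 1 d and at 11.1, 10.5, 10.8 and 11.7 FPKM at 3 d. The groups did not overlap. The level fell 2.49-fold by 1 d (log2 fold change -1.29 with a standard error of 0.12, limma adjusted p = 1.03e-09) and 9.37-fold by 3 d (-3.10, limma adjusted p = 2.65e-18). From 5 d on every sample lay between 5.26 and 10.5 FPKM, and at 28 d the mean was 13.6-fold below 0 d (-3.60, limma adjusted p = 1.74e-19). Smox was called lower at all 7 time points under both scalings. Smox shares no stretch of read length with another gene, so the uncertainty described for Amd1 does not apply to it.

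Sat1 lay higher after denervation by a smaller amount. Its samples were at 13.6, 11.5, 12.4 and 13.6 FPKM at 0 d and at 21.6, 28.1, 22.7 and 18.3 FPKM at 3 d. The groups did not overlap, and the rise of 1.78-fold passed at 3 d (log2 fold change 0.77 with a standard error of 0.15, limma adjusted p = 8.40e-05) as deposited but not with median-ratio scaling (0.55). At the other 6 time points the difference was 0.40 to 0.53 as deposited and 0.04 to 0.26 with median-ratio scaling. All were short of the 1.5-fold limit on the log2(FPKM + 1) scale, while the ratio of mean FPKM at 7 d was 1.54-fold. Sat1 is expressed by immune cells as well as by fibres. At 7 d, where its samples spread most (22.1, 15.0, 13.7 and 27.5 FPKM), the macrophage sum in the same samples was 862, 468, 392 and 1187 FPKM, in the same order. At 3 d the macrophage sums in samples 1 to 4 were 289, 987, 918 and 499 FPKM, and the order was not that of Sat1, which was lowest in sample 4. All 7 macrophage markers were called higher at 3 d, and their part in the level of Sat1 was not tested. In bulk muscle, more cells of a type and more RNA per cell cannot be told apart.

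Paox was the lowest member at each of the time points 0, 3 and 28 d and had no call in any comparison. It was at 1.79, 1.42, 1.56 and 1.54 FPKM at 0 d and at 1.83, 1.88, 1.29 and 1.79 FPKM at 28 d. The groups overlapped, and over 14 to 28 d against 0 d the 95% confidence interval of the difference was -0.23 to 0.17 log2 units as deposited. With median-ratio scaling the difference was -0.26 (limma adjusted p = 0.0121), outside that interval and under 1.5-fold. The level of Paox rested on 85 to 206 fragments per sample over the 8 time points. The exons of Paox overlap those of Echs1 on the opposite strand over 142 bases.

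Between the acetylating and the oxidising enzyme the order in each sample turned over, as it did in synthesis. Smox was 6.69-fold to 9.82-fold above Sat1 at 0 d and 1.63-fold to 3.04-fold above it at 1 d. Sat1 was above Smox in every sample from 3 d on, by 1.56-fold to 2.66-fold at 3 d and by 2.16-fold to 2.68-fold at 28 d.

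**Figure D3:**
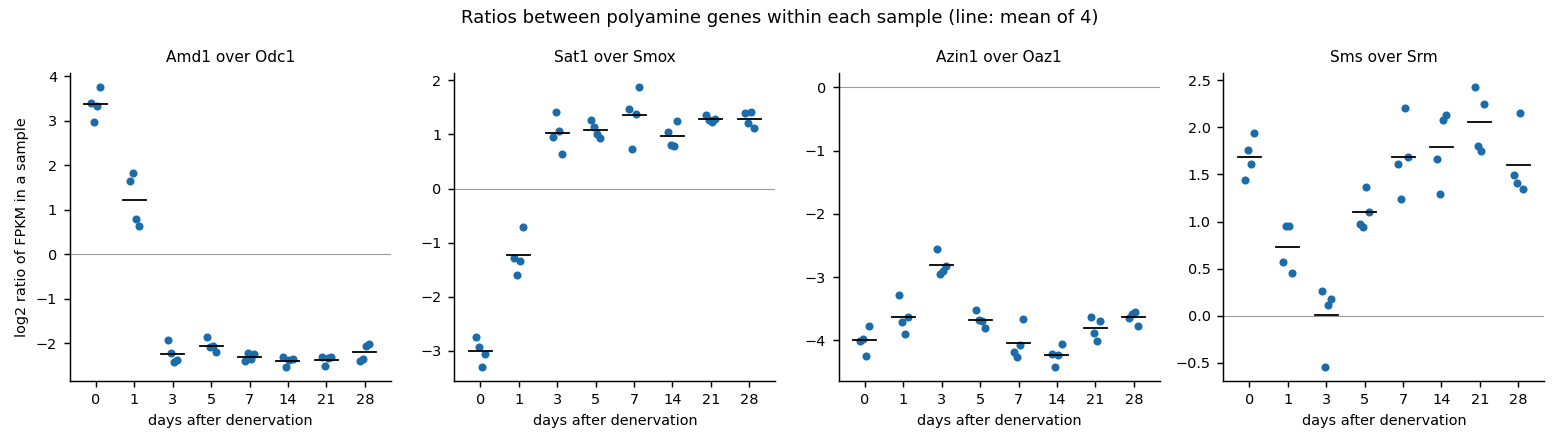
Log2 ratio of FPKM between pairs of polyamine genes in each sample against days after denervation. Points are samples, lines the mean of 4, and 0 marks equal levels. Amd1 over Odc1 changes sign between 1 and 3 d downwards, Sat1 over Smox upwards, Azin1 over Oaz1 peaks at 3 d, and Sms over Srm is lowest there.

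Of the regulators of ornithine decarboxylase, Azin1 and Oaz2 were farthest from 0 d at 3 d, when Odc1 peaked, and all samples of Oaz1 at 1 and 3 d lay below those of 0 d. Azin1 was at 9.52, 9.59, 7.87 and 8.87 FPKM at 0 d and at 15.4, 14.2, 14.8 and 15.0 FPKM at 3 d. All 4 samples of 3 d were above those of 0 d and of 1 d, and the rise against 0 d was 1.66-fold (log2 fold change 0.67 with a standard error of 0.07, limma adjusted p = 1.17e-08). With median-ratio scaling the difference to 0 d was 0.46 and not called, whereas the step from 1 to 3 d was called under both scalings (0.73 and 0.69). Azin1 overlaps the antisense gene Gm49077 over 358 exonic bases, and the strandedness of the counting is not given in the sources used here, so reads of the pair may be mixed.

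Oaz2 had its lowest level at the same time. It was at 54.3, 59.1, 57.6 and 49.0 FPKM at 0 d and at 24.3, 30.7, 37.0 and 35.4 FPKM at 3 d, without overlap. It fell 1.73-fold (log2 fold change -0.78 with a standard error of 0.08, limma adjusted p = 1.62e-09), and by 1.02 with median-ratio scaling. Sample 1 of 3 d, the one that stood apart, had the lowest value, and without it the fall was 0.66 and passed. Between 3 and 5 d Oaz2 rose by 0.65 (limma adjusted p = 3.46e-07), a rise that was 0.53 and under 1.5-fold without that sample and 0.50 with median-ratio scaling.

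Oaz1, the more abundant antizyme, was at 153, 151, 149 and 121 FPKM at 0 d, at 98.6, 98.0, 119 and 110 FPKM at 1 d and at 90.5, 110, 111 and 106 FPKM at 3 d. The samples of 1 and 3 d overlapped each other. The differences from 0 d were -0.42 and -0.45 on the log2 scale, under 1.5-fold as deposited, and -0.61 and -0.69 with median-ratio scaling, where both were called lower. At 28 d Oaz1 was at 164, 155, 151 and 170 FPKM, above 3 d by 0.61 (limma adjusted p = 1.23e-06), by 0.55 without sample 1 of 3 d and by 0.47 with median-ratio scaling, the last pair under 1.5-fold. In single samples Oaz1 was 13.7-fold to 18.9-fold above Azin1 at 0 d and 5.87-fold to 7.75-fold above it at 3 d, the only time point whose samples did not overlap those of 0 d.

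**Figure D4:**
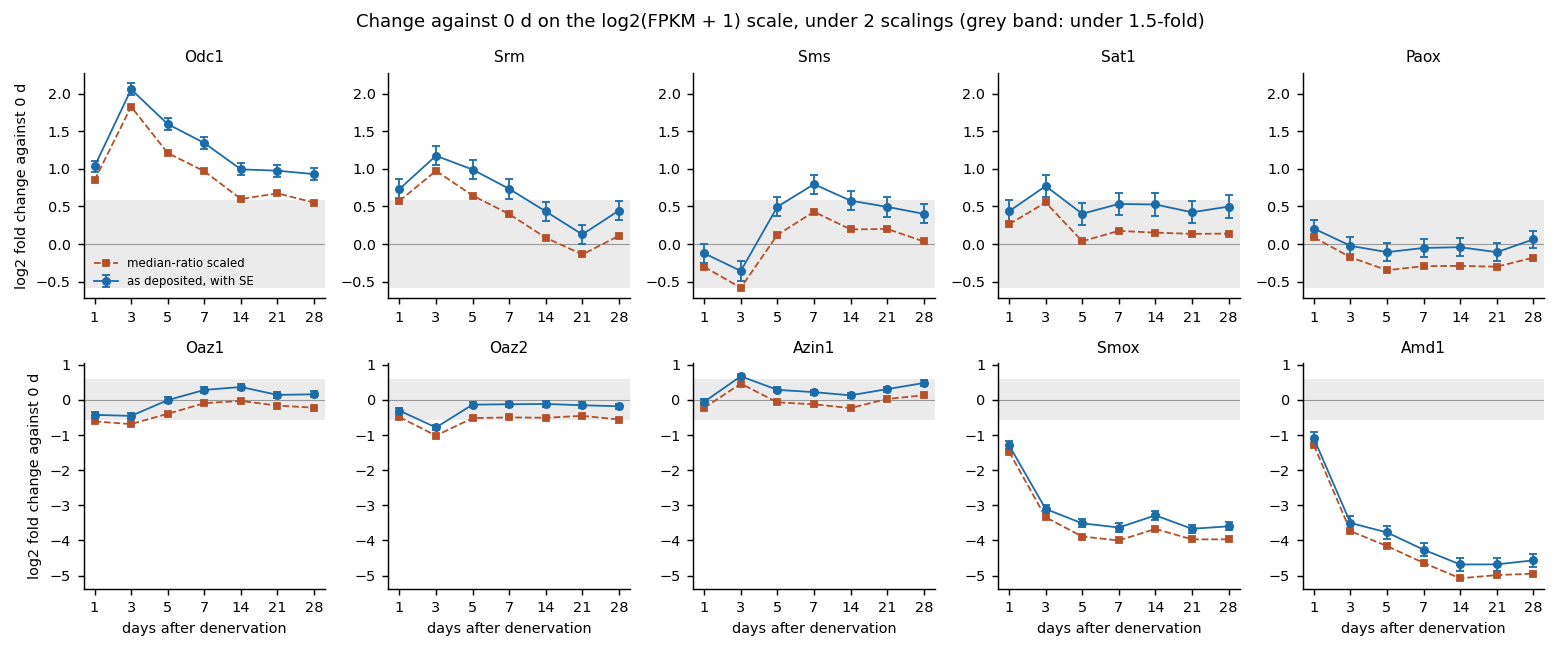
Log2 fold change against 0 d on the log2(FPKM + 1) scale for the 10 genes from 1 to 28 d, as deposited (circles, with standard error from limma) and after median-ratio scaling (squares). The grey band marks changes under 1.5-fold, and the upper and lower rows have different axes. Odc1 lies above the band at every time as deposited, and Smox and Amd1 lie far below it from 3 d on under both scalings.

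Counted over the 9 tested genes, 4 were called higher at 3 d (Odc1, Srm, Sat1 and Azin1) and 2 lower (Smox and Oaz2), where 13.2% and 6.03% of the 22071 genes tested were called. At 1 d there were 2 higher (Odc1 and Srm) and 1 lower (Smox), against 6.34% and 2.49% of all genes. At 5 d the same 3 genes were called, against 14.9% and 3.86%, and at 7 d Sms joined the higher ones, against 15.4% and 4.10%. At 14, 21 and 28 d Odc1 was called higher and Smox lower and no other member was called, where 14.6%, 11.8% and 14.2% of genes were called higher and 3.83%, 3.93% and 4.10% lower. Over those 3 times together the same pair was called, against 13.3% and 3.91% of genes, and the median log2 fold change of the 9 was 0.31, beside 0.13 for all genes tested and 0.28 for expressed genes (FPKM of at least 1). With median-ratio scaling that median was -0.02, beside 0.02 and 0.01. The counts were then 2 higher and 3 lower at 3 d, where 9.01% and 9.16% of genes were called, and 1 of each over 14 to 28 d, where 6.41% and 7.48% were.

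Between neighbouring time points, members were called up to 5 d and not after. Between 1 and 3 d, Odc1 and Azin1 were called higher and Smox lower, where 6.63% and 3.93% of genes were. Between 3 and 5 d, Sms and Oaz2 were called higher, against 3.72%, and none lower, against 2.05%, by limma or by limma-voom. At an unadjusted p under 0.05, 4 were lower, of which Odc1 (-0.46, limma adjusted p = 6.07e-05), Azin1 (-0.39, limma adjusted p = 0.000248) and Smox (-0.41, limma adjusted p = 0.0113) missed the call by size alone. With median-ratio scaling Odc1 was called lower in this step (-0.62, limma adjusted p = 0.000192), where 3.12% of genes were. In the 4 later steps, from 5 to 7 d on, no member was called by limma or by limma-voom, and 3, 3, 4 and 2 of the 9 had an unadjusted p under 0.05. Over all genes 0.657%, 0.634%, 0.453% and 0.199% were called in either direction. Between 3 and 28 d, 3 members were called higher (Sms, Oaz1 and Oaz2) and 2 lower (Odc1 and Srm), where 7.46% and 4.54% of genes were. With median-ratio scaling 1 was called higher (Sms) and 3 lower (Odc1, Srm and Smox), where 5.43% and 6.27% were. At 3 d all 5 markers of cycling cells were called higher. Their summed level was 1.81, 12.6, 11.7 and 7.00 FPKM in the 3 d samples and 0.537 to 0.989 FPKM at 0 d, while Odc1 was at 227, 186, 233 and 258 FPKM and Srm at 12.3, 17.3, 15.8 and 14.4 FPKM in the same 3 d samples. The 4 samples had the same order by Srm as by the cycling sum, with sample 1 lowest in both, and another order by Odc1, of which sample 1 was within the range of the others. The macrophage sum, at 289, 987, 918 and 499 FPKM in these samples, had the same order as Srm too. The part of cycling cells or of macrophages in these levels was not tested.

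The order of levels was changed by 3 d. Before denervation it ran Amd1, Oaz1, Smox, Oaz2, Odc1, Sms, Sat1, Azin1, Srm and Paox, and the samples of Oaz1 and Smox, and of Oaz2 and Odc1, overlapped. At 3 d it ran Odc1, Oaz1, Amd1, Oaz2, Sat1, Sms, Srm, Azin1, Smox and Paox, with Oaz2 and Sat1 and then Sms, Srm and Azin1 not separated. At 28 d it ran Oaz1, Odc1, Oaz2, Sms, Amd1, Sat1, Azin1, Srm, Smox and Paox, with Sms and Amd1, and Srm and Smox, not separated. Paox was last each time.

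Around these members, relatives and pathway neighbours were read from lists chosen for the pathway. Of the other polyamine enzymes and regulators, 6 in all, 4 were tested. Agmat, which encodes an enzyme named for making putrescine from agmatine, was listed at 0 in all 8 samples of 0 and 1 d. At 3 d it was at 0.974, 0.850, 1.92 and 2.02 FPKM and at 28 d at 1.95, 1.48, 1.33 and 1.42 FPKM, from 20 to 48 and 31 to 46 fragments. It passed the filter on low values only through the times at which it was detected, so its calls against 0 d are no support and its values are a description. Amd2, whose values may not be independent of Amd1, was called lower, a call that is no support. Sat2 was called higher at 28 d as deposited (0.65), not with median-ratio scaling (0.35), and Azin2 was not called at any of the 7 time points. Oaz3, an antizyme of the testis, and Satl1 were too low to be tested.

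Of 7 genes of polyamine transport, 3 were called higher over 14 to 28 d, where 13.3% of all genes were, and 1 of them, Atp13a3, kept its call with median-ratio scaling, where 6.41% were. Another of the 7, Atp13a4, was at no more than 0.0101 FPKM at 0 d and passed the filter on low values only through the later times. It was not called by limma and was the further gene among the 4 called by limma-voom, a call that is no support. Atp13a3 encodes a membrane ATPase that takes polyamines into cells. It was at 4.89, 5.03, 5.93 and 5.52 FPKM at 0 d, at 26.4, 33.5, 44.6 and 47.5 FPKM at 3 d and at 108, 122, 92.8 and 89.2 FPKM at 28 d. No sample from 1 d on reached down to the 0 d range, and the rise over 14 to 28 d was 4.00 log2 units (standard error 0.12, limma adjusted p = 4.98e-21), or 3.68 with median-ratio scaling. Slc3a2, the heavy chain of amino acid carriers, rose by 0.60 over the same times and by 1.34 at 3 d, and at 21 d alone its difference was 0.46, under 1.5-fold. Gpc1, a heparan sulphate proteoglycan, rose by 0.88 over 14 to 28 d.

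Of 9 genes of arginine and ornithine supply, 2 were called higher over 14 to 28 d (Ass1 and Asl) and 1 lower (Slc7a2), where 13.3% and 3.91% of all genes were. With median-ratio scaling Oat, which links ornithine to glutamate, was called lower as well (-0.68). Ass1 and Asl encode the enzymes that make arginine from citrulline. Ass1 was at 1.29 to 1.69 FPKM at 0 d, 0.811 to 2.18 FPKM at 3 d, 8.66 to 11.1 FPKM at 14 d and 18.3 to 27.0 FPKM at 28 d, a rise over 14 to 28 d of 2.70 log2 units (limma adjusted p = 4.49e-18). Asl was at 1.17 to 1.56 FPKM at 0 d and 5.03 to 5.64 FPKM at 28 d. Slc7a2, a carrier of arginine and ornithine, went the other way after a single early peak, with 7.02 to 9.78 FPKM at 0 d, 32.2 to 45.3 FPKM at 1 d and 4.79 to 5.86 FPKM at 28 d. Taken singly it was called lower at 14 and 21 d and not at 28 d, where median-ratio scaling called it (-0.86). As deposited, its difference at 28 d was -0.52, short of the 1.5-fold limit on the log2(FPKM + 1) scale (means of 8.17 FPKM at 0 d and 5.38 FPKM at 28 d). At 1 d it was called higher (log2 fold change 2.08, limma adjusted p = 1.28e-14), as were Aldh18a1 (0.81) and Slc7a1 (1.01), where 6.34% of all genes were.

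Of 9 genes for the supply of S-adenosylmethionine and the salvage of methylthioadenosine, the by-product of both synthases, 8 were tested, with a median over 14 to 28 d of -0.10, beside 0.13 for all genes tested and 0.28 for expressed genes, or -0.41 beside 0.02 and 0.01 with median-ratio scaling. Over 14 to 28 d 1 of them was called higher and 1 lower, where 13.3% and 3.91% of all genes were. Ahcy, which clears S-adenosylhomocysteine, was called higher at 14 to 28 d (1.09, limma adjusted p = 2.07e-11) and was highest at 3 d, with 71.0, 81.6, 49.3 and 57.3 FPKM against 10.7 to 12.7 FPKM at 0 d. Adi1, an enzyme of the salvage pathway, was called lower over 14 to 28 d together (-0.74, limma adjusted p = 3.06e-07) with overlap of single samples. Taken singly it was called at 21 and 28 d and not at 14 d (-0.49, under 1.5-fold), and its means at 5 and 7 d, 46.5 and 47.1 FPKM, lay above the 37.5 FPKM of 0 d. Apip, another salvage enzyme, was lower at 3 d (-1.04, limma adjusted p = 9.77e-10) and, with median-ratio scaling, also at 14 to 28 d (-0.70).

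Of 4 genes of hypusination, in which spermidine is used to modify the translation factor eIF5A, none was called over 14 to 28 d by limma or limma-voom, with 2 (Dhps and Eif5a) at an unadjusted p under 0.05, where 13.3% and 3.91% of all genes were called higher and lower. Their median was 0.18, between 0.13 for all genes tested and 0.28 for expressed genes, or -0.09 beside 0.02 and 0.01 with median-ratio scaling. At 3 d Eif5a was called higher, with a mean of 263 FPKM against 113 FPKM at 0 d (log2 fold change 1.21, limma adjusted p = 2.06e-13), and so was Dhps, which encodes the first enzyme of the modification (0.65, limma adjusted p = 3.64e-07), where 13.2% of all genes were. With median-ratio scaling Eif5a kept its call (0.97), where 9.01% were called, and Dhps lost it (0.44).

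**Figure D5:**
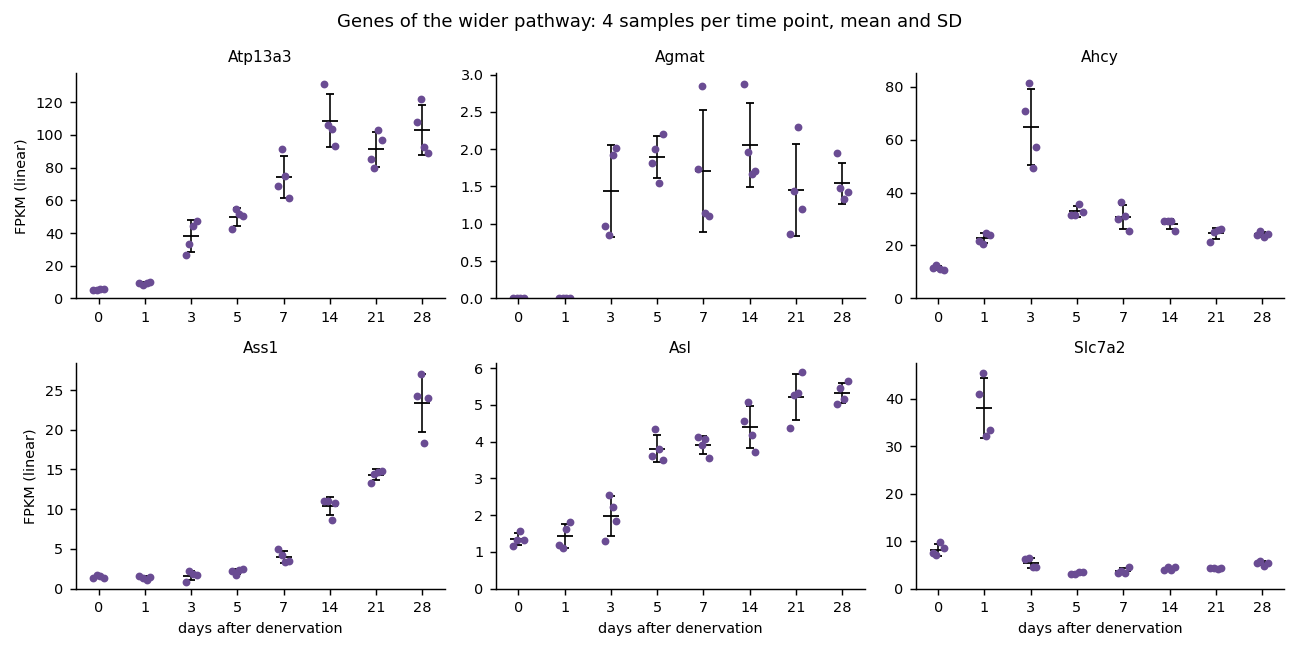
FPKM (linear axis from 0) of Atp13a3, Agmat, Ahcy, Ass1, Asl and Slc7a2 against days after denervation. Points are single samples, 4 per time point, and bars the mean and SD. Atp13a3 climbs to about its 28 d mean of 103 by 14 d, Ass1 rises mainly after 7 d, Ahcy peaks at 3 d, Slc7a2 at 1 d, and Agmat is listed at 0 until 3 d.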

How the data were processed

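RNA of GAS muscle was sequenced in 32 samples, 4 at each of 8 time points. Per the labels, the submitters' processing notes name CASAVA, HISAT2 2.1.0, DESeq2 and GRCm38. The authors deposited FPKM values for 33397 genes, and the counting tool and annotation are not given in the sources used here. Columns were assigned to time points by their names, with C taken as 0 d. Multiplying FPKM by exon length gave whole fragments within 0.05 for 99.3% to 99.4% of low values, from which depth was read. Genes with FPKM of at least 0.1 in 4 samples (22071) were tested on log2(FPKM + 1) with limma 3.58.1 in R 4.3.3, 15 contrasts, empirical Bayes with a variance trend and Benjamini-Hochberg adjustment over all genes. A call needed adjusted p under 0.05 and 1.5-fold on that scale, and differences said to be under 1.5-fold fell short of it there. Fold changes on this scale understate those of low genes, and folds in the text are ratios of mean FPKM. The script was tested on simulated data. The members and lists were chosen with earlier results of these data known. Named were the 10 members, their close relatives, the 5 genes most like Amd1, and per list up to 3 called genes in each direction over 14 to 28 d, and others named at 1 and 3 d were chosen after their values were seen. One gene of the wider lists is not reported here. Marker sums, within-sample ratios and promoter motifs are descriptions. The labels do not tie samples to animals, while the study describes its samples as biologically independent. The 95% intervals use 24 residual degrees of freedom. Python 3.11.15 was used for the rest.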

Additional observations from a re-analysis of the deposited data

Results flagged for a closer look

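A sample lay far from its 3 companions in 4 of the 80 sets of 4 that 10 genes and 8 times make, and chance alone would give about 4, at 1 in 20. Paox at 28 d was at 1.29 FPKM in sample 3 against 1.79 to 1.88 FPKM in the others. Oaz1 at 0 d was at 121 FPKM in sample 4 against 149 to 153 FPKM. Azin1 was at 11.9 FPKM in sample 1 of 5 d against 10.8 to 10.9 FPKM, and at 10.1 FPKM in sample 3 of 21 d against 11.6 to 11.8 FPKM.

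For 5 of the 9 tested genes, 3 upwards and 2 downwards, the change from 0 d differed between 3 d and 28 d by the limma test of 28 d against 3 d, which is the test of that difference and called 7.46% of all genes higher and 4.54% lower. The difference on the log2 scale was -1.13 for Odc1 (adjusted p = 4.08e-12), -0.73 for Srm (adjusted p = 4.55e-05), 0.76 for Sms (adjusted p = 2.23e-05), 0.61 for Oaz1 (adjusted p = 1.23e-06) and 0.60 for Oaz2 (adjusted p = 3.93e-07). The values of Oaz1 and Oaz2 were 0.55 and 0.48 without sample 1 of 3 d, both under 1.5-fold. With median-ratio scaling they were 0.47 and 0.46, also under 1.5-fold, and Smox was called lower as well (-0.63, adjusted p = 0.000115).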

How the results depend on the processing

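No paired analysis was possible because the columns of the table carry only a time point and a letter or number that no sample title shares. Under 9 other settings, 250 of 270 counts of called members kept within 1.5 times, and 1263 of 1350 single fold changes kept both their sign and their side of the limits. For Amd1, which has no call, a fold change counted as kept if it moved by less than the residual SD. With median-ratio scaling 6 values of Amd1 moved by more, all to a larger fall, and are not among the kept. No called change turned its sign. A further 46 differences that were called neither as reported nor under the setting changed sign, 17 of them with median-ratio scaling, to between -0.23 and 0.18. The calls of Smox against 0 d and those of Odc1 before 28 d were among those kept. Median-ratio scaling gave 1 member higher and 2 lower at 1 d, 2 higher at 3 d, 1 higher at 7 d, 0 higher at 28 d, 1 higher and 1 lower from 3 to 5 d, and 1 higher and 3 lower between 3 and 28 d. Quantile normalization gave 1 higher at 1 d, 2 higher and 4 lower at 3 d, 1 higher at 7 d and 2 lower between 1 and 3 d. Rescaling to TPM gave 3 members higher over 14 to 28 d, 4 on each of 5, 14 and 28 d and 2 on 21 d. A pseudocount of 0.1, and limma-voom on recovered fragments, which was chosen after seeing the data, each gave 2 higher at 14 d, the second being Sms. Which feature of each scaling moved these calls was not tested. With 1 of the 32 samples left out at a time, 954 of 960 counts kept, and the number higher ranged from 3 to 4 at 7 d, 1 to 2 at 14 d, 1 to 2 between 3 and 5 d and 1 to 3 between 3 and 28 d. The lowest of the last pair came without sample 1 of 3 d. Over all genes, 3792 were called over 14 to 28 d as reported, 7202 with a pseudocount of 0.1, 6854 as TPM and 7398 by limma-voom, and the share of higher calls was 77.3% as deposited and 46.1% with median-ratio scaling. Depth limits the genes read from few fragments, such as Agmat with 20 to 48 per sample at 3 d.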
